A study of Homo sapiens with 6 samples.

Results

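The genes described here are 10 regulators and targets of the ATF4 stress response (ATF4, ATF5, DDIT3, TRIB3, CHAC1, SESN2, CEBPB, ASNS, CEBPG and VLDLR), out of 58395 genes in the files. They are listed by symbol, each symbol matches 1 Ensembl gene, and they were selected on this same contrast, so their own changes are a description and carry no test. In HCT116 cells with less STBD1, CHAC1 and ASNS are 35.8% and 33.6% lower than in control cells, CEBPG is 11.3% lower, and for each of the 3 the highest shSTBD1 library is still under the lowest control. For ATF4 itself, ATF5, DDIT3, TRIB3, SESN2 and CEBPB the groups overlap. VLDLR is almost absent from these cells. Among all 15566 tested genes, 15.8% are called at an adjusted p under 0.05, 8.22% as higher and 7.54% as lower in shSTBD1, which is the background for the 3 of 9 tested members called here, all lower.

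HCT116 cells are an established colorectal cancer line, labelled as of colon origin and grown in DMEM with serum. The 3 libraries of the shControl group come from cells that stably carry a lentiviral non-target hairpin, and the 3 of the shSTBD1 group from cells that carry 1 hairpin against STBD1, a glycogen-binding protein proposed to deliver glycogen to autophagy. Each group rests on a single hairpin, so effects of the hairpin other than the loss of STBD1 cannot be told apart from it. The comparison asks how gene expression changes when STBD1 is depleted, and the study calls the replicates biological without saying whether they are separate infections, so p-values measure the spread between these samples.

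ATF4 is a bZIP transcription factor at the end of the integrated stress response. Kinases that sense amino acid shortage, unfolded protein, double-stranded RNA or heme loss phosphorylate the initiation factor eIF2, which lowers protein synthesis in general but lets ribosomes reach the ATF4 reading frame. ATF4 then pairs with C/EBP proteins on composite elements and turns on genes for amino acid synthesis, amino acid transport and tRNA charging, and, when stress lasts, genes linked to cell death. Because ATF4 is largely set by translation, its RNA level and its activity need not move together, and these libraries measure RNA only.

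The composite element to which ATF4 and C/EBP partners bind has the core TGATGNAA, or TTNCATCA when read on the other strand. It was searched on both strands in RefSeq promoter windows of GRCh38.p14, from 250 bases before to 50 bases after each start, with all windows of a gene counted. Of the 10 members, all with a window, 3 hold a match, and they are CHAC1, ASNS and CEBPG, the same 3 that are called lower. Among the 11167 tested genes with a window, 2.67% hold one. The members have a mean of 1.9 windows per gene and these tested genes 1.45, so the shares are not from equal lengths of sequence. The members were selected on this contrast, and the overlap of matches with calls was not tested. The matches are shown as 30 bases along the strand of the gene, with the 8 bases of the match in capitals, so that the spelling of each can be compared.
CHAC1: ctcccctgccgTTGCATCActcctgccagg
ASNS: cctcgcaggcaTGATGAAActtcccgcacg
CEBPG: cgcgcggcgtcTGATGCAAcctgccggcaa
The CHAC1 stretch lies at chr15:40953251-40953280 on the plus strand. Its match starts 209 bases before the canonical start, inside an exon of another annotated transcript. The ASNS stretch lies at chr7:97872458-97872487 on the minus strand. Its match starts 68 bases before the canonical start, also inside an exon of another transcript. The CEBPG stretch lies at chr19:33374060-33374089 on the plus strand. Its match starts 42 bases before a RefSeq start and lies inside an intron of the canonical GENCODE transcript, in no exon. CHAC1 and CEBPG carry the narrower form TGATGCAA or its reverse complement TTGCATCA, which is contained in TGATGNAA and is present in 0.716% of the tested genes. The cAMP response element TGACGTCA, a palindrome that bZIP factors also bind, is in the windows of 0 members and of 3.76% of the tested genes. A match is a run of letters and not a shown binding site, and the lack of one says only that these letters are not in these windows.

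The libraries hold between 17689097 and 21668274 expected counts, and the median library has 19697127 in shControl and 19735738 in shSTBD1. Counts are given as CPM, which are counts relative to a library total corrected by edgeR's TMM factors, and differences are log2 fold changes of shSTBD1 against shControl from edgeR's quasi-likelihood test, given with their standard errors (SE). STBD1, the targeted gene, is at 16.1, 15.6 and 14.4 CPM in shControl and at 11.6, 9.05 and 9.17 CPM in shSTBD1, a log2 fold change of -0.64 (SE 0.098, adjusted p = 2.9e-04 from edgeR), so STBD1 RNA is lowered and not lost. The read-through gene FAM47E-STBD1 shares 1986 exonic bases with STBD1 on the same strand and is at 6.09 CPM, and RSEM's posterior SD of the STBD1 count is 8.37% of the count, so the remaining level depends on how reads were divided between them. Of 8 colorectal epithelial markers, KRT8, KRT18, KRT19, EPCAM, CDH1 and CDX2 are expressed, CDX1 is at 0 and VIL1 is below 0.32 CPM in every library. The summed level of the 8 markers is 3343 to 3582 CPM in shControl and 3967 to 4056 CPM in shSTBD1. Of the 6 tested markers, 4 (66.7%) are called higher, against 8.22% of all tested genes, the largest change being CDH1 at 0.29. Their part in the changes described here was not tested. Of 12 fibroblast, leukocyte and endothelial markers, 3 hold enough counts for a test and are not called, with log2 fold changes from -0.22 to 0.15. The sum of the 12 is 33.2 to 41.1 CPM in shControl and 38.9 to 42.8 CPM in shSTBD1, nearly all of it COL1A1, and PTPRC and CD3E are at 0. At the members, shControl replicate 1 is the lowest of its group in 8 of the 9 tested genes, ATF5 being the exception. The gap can be small, as for ASNS with 148.5 CPM against 148.8 CPM in shControl replicate 2. How often this library is the lowest among all tested genes was not counted.

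**Figure D1:**
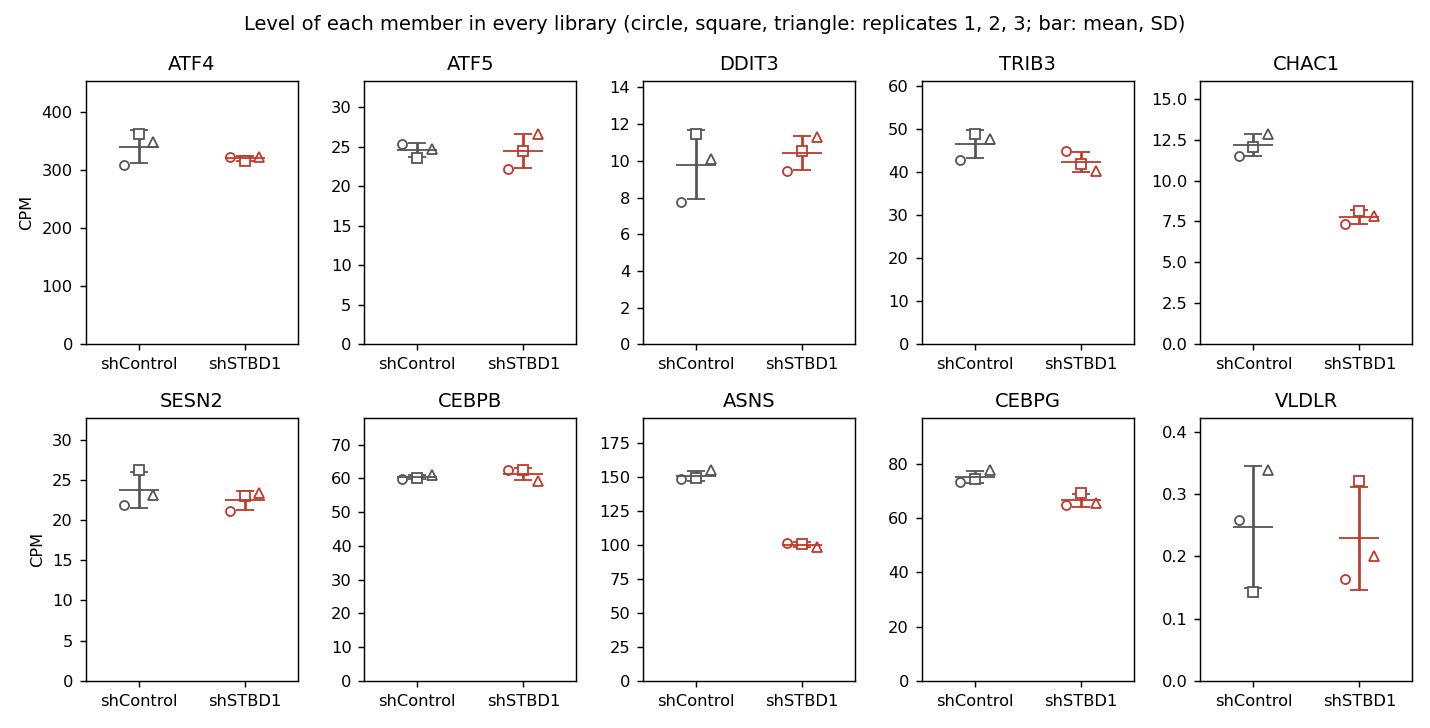
The CPM of the 10 members in each of the 6 libraries (symbols mark replicates 1, 2 and 3, and the bars the mean and SD of each group, n = 3), with every axis starting at 0. For ASNS, CHAC1 and CEBPG all 3 shSTBD1 libraries lie below all 3 shControl libraries, and for the other members the groups overlap.

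The transcription factors among the members come first. ATF4 (ENSG00000128272, chromosome 22, 39519695 to 39522683) is at 308, 362 and 349 CPM in shControl and at 323, 315 and 322 CPM in shSTBD1. The shSTBD1 libraries are close to one another and lie between the lowest control and the other two. ATF4 has a log2 fold change of -0.086 (SE 0.046) and is not called. Without shControl replicate 1, its lowest library, the change is -0.16 and ATF4 is called lower. Without shControl replicate 2, its highest library, the change shrinks to -0.036 and is not called. With offsets for a smooth trend on gene length it is -0.12 and called.

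CEBPG (ENSG00000153879, chromosome 19, 33373685 to 33382686) encodes C/EBPγ, a partner with which ATF4 forms dimers on the composite element. It is at 73.4, 74.4 and 77.6 CPM in shControl and at 64.8, 69.2 and 65.5 CPM in shSTBD1. The groups do not overlap, although the highest shSTBD1 library is only a little below the lowest control. CEBPG is called lower, with a log2 fold change of -0.17 (SE 0.041). The call is lost without shSTBD1 replicate 1 (-0.16), without shSTBD1 replicate 3 (-0.16) and in the fits that use effective length or TPM (-0.18 to -0.20), while the size of the change stays between -0.15 and -0.20 in all alternatives.

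CEBPB (ENSG00000172216, chromosome 20, 50190830 to 50192668), another C/EBP partner, lies close together in all libraries. It is at 59.9, 60.2 and 60.9 CPM in shControl and at 62.4, 62.4 and 59.1 CPM in shSTBD1. The groups overlap, and the log2 fold change of 0.022 (SE 0.041) is not called. Over all alternatives it runs from 0.00063 to 0.048.

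ATF5 (ENSG00000169136, chromosome 19, 49928702 to 49933935) is a bZIP factor that, like ATF4, is controlled by translation under stress. It is at 25.4, 23.6 and 24.7 CPM in shControl and at 22.2, 24.5 and 26.6 CPM in shSTBD1. The shSTBD1 libraries include both the lowest and the highest value of the 6. Its log2 fold change is -0.0029 (SE 0.069) and not called, and the sign changes with library-size scaling and when any of 3 libraries is left out. ATF5 shares 565 exonic bases with NUP62 on the other strand, which is at 138 CPM, and the sources do not say if strand was used in counting, so reads from this stretch cannot be assigned with certainty.

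DDIT3 (ENSG00000175197, chromosome 12, 57516588 to 57521737) encodes CHOP, the factor that links long-lasting endoplasmic reticulum stress to cell death. It is at 7.78, 11.5 and 10.1 CPM in shControl and at 9.45, 10.6 and 11.3 CPM in shSTBD1. The lowest value is again that of shControl replicate 1, and the groups overlap. DDIT3 has a log2 fold change of 0.091 (SE 0.12), is not called, and runs from -0.053 without that library to 0.23 without shControl replicate 2. DDIT3 shares 355 exonic bases with MARS1 on the other strand, at 249 CPM, and 58 with MBD6.

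TRIB3 (ENSG00000101255, chromosome 20, 362835 to 397559) is a pseudokinase induced by ATF4 and CHOP that acts back on them. It is at 42.7, 48.8 and 47.7 CPM in shControl and at 44.7, 41.8 and 40.3 CPM in shSTBD1. All shSTBD1 libraries lie below shControl replicates 2 and 3, but shControl replicate 1 lies among them. TRIB3 has a log2 fold change of -0.14 (SE 0.058) and is not called. Without shControl replicate 1 it is -0.20 and called lower, and without shControl replicate 2 it is -0.096 and not called, as for TRIB3 in all other alternatives.

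Among the effectors, ASNS and CHAC1 have the largest log2 fold changes of the 9 tested members. ASNS (ENSG00000070669, chromosome 7, 97851677 to 97872542) encodes asparagine synthetase and is a much used readout of ATF4 activity when amino acids run short. It is at 149, 149 and 155 CPM in shControl and at 101, 101 and 98.1 CPM in shSTBD1. Each group is tight and a wide gap separates them. ASNS has a log2 fold change of -0.59 (SE 0.034), which stays between -0.61 and -0.55 and called in all 17 alternatives. A same-strand gene model, ENSG00000284707, shares 2415 exonic bases with ASNS but holds only 1.28 CPM, and RSEM's posterior SD of the ASNS count is 0.314% of the count, the largest of the 10 members.

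CHAC1 (ENSG00000128965, chromosome 15, 40952962 to 40956512) encodes an enzyme that breaks down glutathione and is induced by ATF4 in stressed cells. It is at 11.5, 12.1 and 12.9 CPM in shControl and at 7.32, 8.13 and 7.86 CPM in shSTBD1, from 134 to 252 counts per library. Every shSTBD1 library lies well below every control. CHAC1 has a log2 fold change of -0.64 (SE 0.093), which stays between -0.68 and -0.60 and called in all 17 alternatives. By log2 fold change, CHAC1 ranks 60, ASNS 67 and CEBPG 760 among the 1173 genes called lower.

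SESN2 (ENSG00000130766, chromosome 1, 28259518 to 28282491) is a sensor of leucine that restrains mTORC1. It is at 21.8, 26.2 and 23.1 CPM in shControl and at 21.1, 23.0 and 23.3 CPM in shSTBD1. The groups overlap, and the log2 fold change of -0.080 (SE 0.073) is not called. It is -0.14 without shControl replicate 1, 0.0017 without shControl replicate 2 and -0.041 without shSTBD1 replicate 1, and SESN2 is not called in any of these. VLDLR (ENSG00000147852, chromosome 9, 2621182 to 2660056), a lipoprotein receptor induced through ATF4 under endoplasmic reticulum stress in other cells, has 5, 3 and 6 counts in the shControl libraries and 3, 7 and 4 in the shSTBD1 libraries. These counts fall below the filter on low values, so VLDLR is not tested, and a difference is not detectable at this depth.

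**Figure D2:**
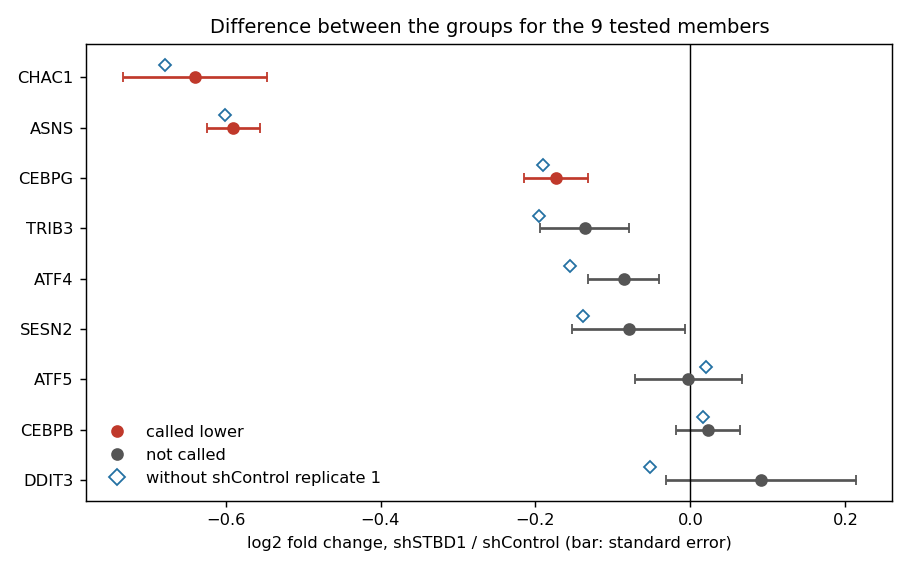
The log2 fold change of the 9 tested members (circles, with the standard error as a bar, red where called lower) and its value without shControl replicate 1 (open diamonds). CHAC1 and ASNS lie near -0.6 with and without that library, while ATF4 moves from -0.086 to -0.16, TRIB3 from -0.14 to -0.20 and DDIT3 from 0.091 to -0.053.

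Over the 9 tested members the median log2 fold change is -0.086, against 0.0023 over all tested genes, with 7 negative and 2 positive. This median is -0.16 without shControl replicate 1 and -0.036 without shControl replicate 2. The 3 members whose groups do not overlap all have shSTBD1 below shControl. Among all tested genes, 33.6% have groups that do not overlap and 16.3% have all shSTBD1 libraries below. Without shControl replicate 1, 5 members are called, all lower, in a fit that calls 2577 of 15875 genes, 1244 of them lower. The summed level of the 10 members is 699 to 768 CPM in shControl and 655 to 656 CPM in shSTBD1. This sum is mostly ATF4 and ASNS. The group means are 340 and 320 CPM for ATF4, and 151 and 100 CPM for ASNS, in shControl and shSTBD1.

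Levels of different genes are compared per length, as TPM, the share of all transcripts that a gene provides. In shControl, ATF4 is the most abundant member with 334 ± 35.7 TPM (SD, n = 3), followed by ASNS with 110 ± 3.43 TPM and CEBPB with 41.2 ± 1.22 TPM. TRIB3 (26.1 ± 2.95 TPM), ATF5 (22.9 ± 2.37 TPM) and CEBPG (22.6 ± 0.929 TPM) follow, and their libraries overlap. DDIT3 has 17.8 ± 3.88 TPM, and its highest library overlaps the lowest of ATF5. CHAC1 with 11.7 ± 0.599 TPM lies above SESN2 with 8.56 ± 0.999 TPM in all control libraries. In shSTBD1 the order of this last pair turns over: CHAC1 has 7.4, 7.43 and 7 TPM, below the 7.56, 8.09 and 8.25 TPM of SESN2. ASNS falls to 74.4 ± 0.550 TPM and keeps its place, and VLDLR has 0.04 TPM or less in every library.

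**Figure D3:**
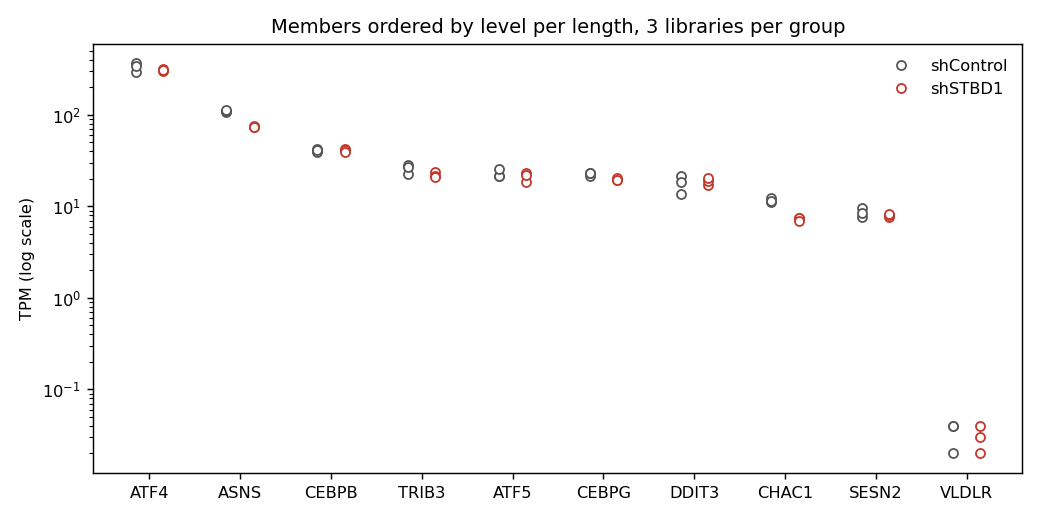
The TPM of each member on a log axis, with 1 point per library, ordered by the mean of shControl. The members span from about 334 TPM for ATF4 to 0.033 TPM for VLDLR, and the 2 groups separate for ASNS, CHAC1 and CEBPG.

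Upstream of ATF4, the genes that control eIF2 differ by at most 0.25 on the log2 scale. Of 19 listed genes, all are tested, 2 are called higher and 3 lower, with a median log2 fold change of -0.027. This is 26.3% called, against 15.8% of all tested genes. The median of the genes of eIF2 signalling upstream of ATF4 is 0.0049 without shControl replicate 1 and 0.012 without shControl replicate 2. With offsets for effective length 3 are called, and with limma on TPM 2. Among the 4 eIF2 kinases, EIF2AK2 (PKR, which senses double-stranded RNA) is called lower, at 102, 93.2 and 98.9 CPM in shControl and 88.0, 87.3 and 89.4 CPM in shSTBD1 (log2 fold change -0.15, SE 0.040, adjusted p = 0.015 from edgeR), a call lost in 6 of 17 alternatives. EIF2AK1 (HRI, which senses heme loss) has -0.059, EIF2AK3 (PERK, the endoplasmic reticulum sensor) -0.063 and EIF2AK4 (GCN2, the sensor of uncharged tRNA) 0.018, none of them called, and the sign for EIF2AK3 and EIF2AK4 turns in the fits on effective length or TPM. DNAJC3, an inhibitor of PKR and PERK, falls by 0.22 on the log2 scale (adjusted p = 0.0027 from edgeR), a call lost in 3 of 17 alternatives. The eIF2 subunits go separate ways, with EIF2S3 at -0.20 (adjusted p = 2.8e-04) and EIF2S1 at 0.18 (adjusted p = 0.0011), while EIF2S2 is not called at 0.039. GCN1, which activates GCN2 and is the most abundant gene of the list, has -0.058 and is not called. PPP1R15B, a subunit that directs the phosphatase to eIF2, rises by 0.25 (adjusted p = 7.0e-05 from edgeR). It is at 121 to 123 CPM in shControl and 141 to 149 CPM in shSTBD1, and the call is lost in 2 of 17 alternatives. PPP1R15A (GADD34), the stress-induced subunit of that phosphatase and itself an ATF4 target, has 0.14 and is not called; it was added after its value was seen.

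Genes of other bZIP factors, listed as bZIP partners, and paralogs of the members form the next list. Whether each of these factors pairs with ATF4 was not examined. Of these 14 genes, 5 are called higher and 2 lower, with a median of 0.098. The share called is 50%, against 15.8% of all tested genes. The calls number 3 with DESeq2, 2 with offsets for effective length or with limma on TPM, 3 without shControl replicate 2, and 4 without any 1 of the shSTBD1 replicates. ATF3, a stress-induced factor that ATF4 can turn on, is at 17.8, 18.5 and 21.2 CPM in shControl and at 25.6, 24.8 and 24.8 CPM in shSTBD1, and the groups do not overlap (log2 fold change 0.39, SE 0.070, adjusted p = 0.0011 from edgeR). TRIB1, a paralog of TRIB3, rises by 0.28 (adjusted p = 6.7e-06 from edgeR), and ATF3 and TRIB1 keep the call in all 17 alternatives. FOS has 0.42 and JUN 0.22, both called higher, and the call is lost in 8 and 3 of 17 alternatives. SESN1, a paralog of SESN2, has 0.23 with an adjusted p of 0.045, a call lost in 10 of 17 alternatives. JDP2, a repressor that pairs with JUN, has -0.39 and NFE2L2 (NRF2, the factor of the oxidative stress response) -0.14, both called lower, and the call is lost in 7 and 9 of 17 alternatives, DESeq2 among them. CREB1, ATF2 and TRIB2 are not called, with 0.018, -0.066 and 0.077.

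Among other known ATF4 targets, more are called lower than higher. Of 48 listed targets, 45 are tested, 21 are called lower and 7 higher (62.2% called against 15.8% of all tested genes), and their median log2 fold change is -0.10. Without shControl replicate 1 the counts are 22 lower and 5 higher, and with DESeq2 18 lower and 4 higher. With offsets for effective length they fall to 10 lower and 2 higher, and with limma on TPM to 9 lower and 2 higher. The list was written from textbook knowledge with earlier results of these data known, so no more is read from these counts. Both directions occur, and the genes are given by functional group.

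Among genes for amino acid transport, 6 of 8 are called, all lower, with a median of -0.30 over the group. Among all tested genes 7.54% are called lower. The calls number 4 with offsets for effective length and 3 with limma on TPM, all lower. SLC7A11, the cystine importer that feeds glutathione synthesis, is at 72.3, 75.1 and 77.6 CPM in shControl and at 48.3, 43.7 and 47.1 CPM in shSTBD1. A wide gap separates the groups (log2 fold change -0.69, SE 0.047, adjusted p = 6.7e-08 from edgeR). SLC1A4, a transporter of neutral amino acids, falls by 0.53 (SE 0.11), and SLC7A1, a transporter of arginine and lysine, by 0.36 (SE 0.033). The call of SLC1A4 is lost in 2 of 17 alternatives. SLC38A2, a sodium-coupled carrier and the most abundant gene of the group with 1022 to 1046 CPM in all libraries, differs by 0.0054 and is not called. SLC6A9 has -0.43 and is not called (adjusted p = 0.059 from edgeR); it was named after its value was seen.

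Genes for amino acid synthesis are mixed. Of 11, 10 are tested, 5 are called lower and 2 higher. In shares, 70% are called and 50% are called lower, against 15.8% and 7.54% of all tested genes. The calls number 4 with DESeq2, 2 without shControl replicate 2, 3 without shControl replicate 3 or any 1 of the shSTBD1 replicates, and 2 with offsets for effective length or limma on TPM. PSAT1, the second enzyme of serine synthesis, is at 167, 174 and 173 CPM in shControl and at 125, 123 and 125 CPM in shSTBD1 (log2 fold change -0.46, SE 0.032, adjusted p = 7.5e-08 from edgeR). PHGDH, the first enzyme of the same path, falls by 0.51 (SE 0.034), and both keep the call in all 17 alternatives. CTH, which makes cysteine from cystathionine, rises by 0.29 (SE 0.090), a call lost in 11 of 17 alternatives. CBS has too few counts to be tested.

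Genes for tRNA charging and export have small negative changes. All 13 are tested and negative, 9 are called lower, and the median is -0.15. The share called lower is 69.2%, against 7.54% of all tested genes. The largest changes, named here after their values were seen, are those of the cysteinyl, tyrosyl and glycyl tRNA synthetases, CARS1 at -0.31, YARS1 at -0.26 and GARS1 at -0.26, and these 3 keep the call in all 17 alternatives. EPRS1, the most abundant of those not called, has -0.048. MARS1, the neighbour that overlaps DDIT3, has -0.19 from counts but -0.021 with offsets for effective length, where it is not called. With those offsets, and with limma on TPM, 4 of the 13 are called.

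Of 16 targets linked to stress, secretion and cell death, 14 are tested, 5 are called higher and 1 lower, and the median is 0.056. The share called is 42.9%, against 15.8% of all tested genes. With offsets for effective length or limma on TPM 2 are called, both higher, and without shControl replicate 1 the median is 0.013. ERO1A, an oxidase of the endoplasmic reticulum that hypoxia also induces, is at 102, 98.8 and 99.4 CPM in shControl and at 169, 160 and 166 CPM in shSTBD1 (log2 fold change 0.72, SE 0.034, adjusted p = 1.2e-09 from edgeR). Over the alternatives the change of ERO1A runs from 0.48 to 0.75. Its mean effective length is 2828 in shControl and 3269 in shSTBD1. DDIT4, an inhibitor of mTORC1, rises by 0.29 (SE 0.031), GDF15, a secreted stress signal, by 0.27 (SE 0.050) and BBC3 (PUMA, a killer protein of the BCL2 family) by 0.26 (SE 0.077). The call of BBC3 is lost in 8 of 17 alternatives, among them without shControl replicate 1, and that of GDF15 in 3 of 17. STC2, a secreted glycoprotein named after its value was seen, is the gene called lower, at -0.23. The call of STC2 is lost in 3 of 17 alternatives, and its change runs from -0.25 to -0.10 over all of them. SQSTM1, an autophagy receptor, has 0.030 and is not called. NUPR1 and FGF21 have too few counts to be tested.

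**Figure D4:**
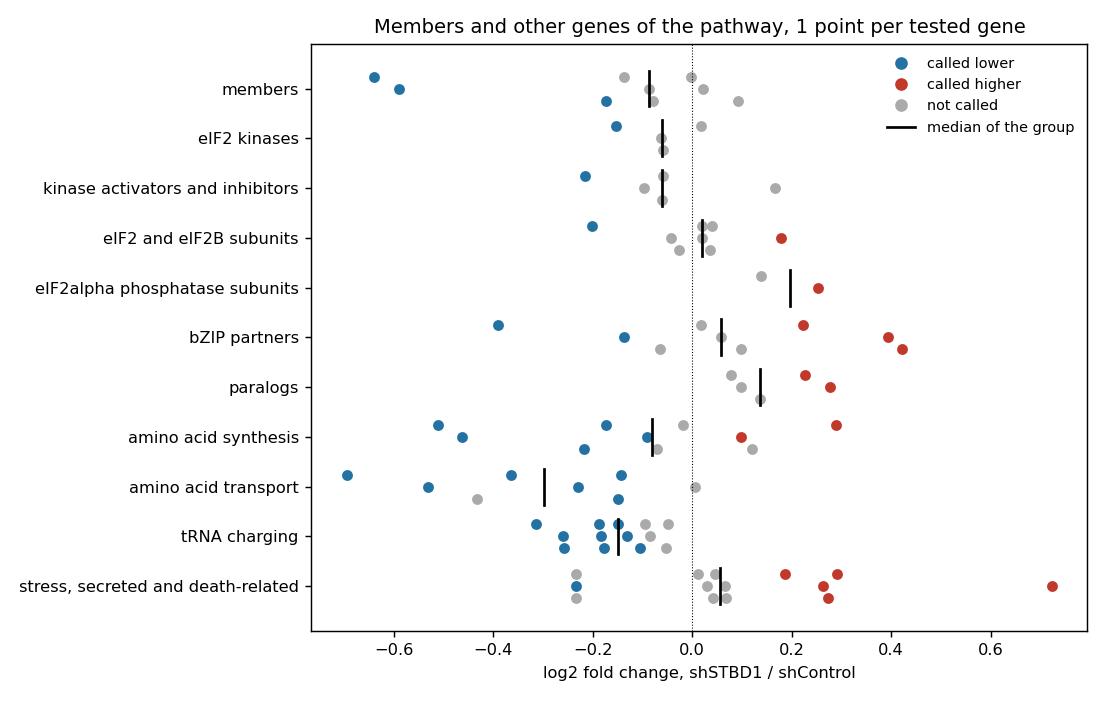
The log2 fold change of each tested member and of each tested gene of the other groups of the pathway, 1 point per gene, with the median of each group as a black line. Every called gene of amino acid transport and of tRNA charging is on the lower side, while 5 of the 6 called stress, secreted and death-related targets are on the higher side.

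The IRE1 and ATF6 branches of the unfolded protein response act beside PERK and ATF4. Of their 16 listed genes, 3 are called, all lower, with a median of -0.052. This is 18.8% called, near the 15.8% of all tested genes. They are XBP1, the factor that IRE1 splices, at -0.19 (adjusted p = 0.0091 from edgeR), SEL1L, part of the machine that removes misfolded proteins, at -0.18 (adjusted p = 0.014) and the chaperone HYOU1 at -0.17 (adjusted p = 0.0016). The count is 6 without shControl replicate 1 (5 lower and 1 higher), 2 without shControl replicate 3 or shSTBD1 replicate 2, 1 without shSTBD1 replicate 3 and 0 in the fits on effective length or TPM. The chaperones HSPA5, CALR and HSP90B1, all at 828 CPM or more, are not called, with -0.037, 0.054 and 0.037.

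The composite element was also searched in the other targets. Of the 48 other targets, 36 have a promoter window and 13 of them a match to TGATGNAA. Among the 16 called lower with a window, 10 hold a match, and among the 18 not called or called higher, 2 do. Of all tested genes with a window, 2.67% hold one. Those called lower have a mean of 1.56 windows per gene and the others 1.22, so the shares are not from equal lengths of sequence. The 12 tested targets with a match have a median log2 fold change of -0.17, and the 22 without one a median of -0.034. The 2 with a match that are not called are NARS1 and HERPUD1. The 10 called targets with a match belong to amino acid transport or tRNA charging, and 4 of them, chosen after their values were seen, are shown for comparison with those of the members.
SLC1A4: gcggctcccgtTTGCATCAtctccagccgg
SLC7A1: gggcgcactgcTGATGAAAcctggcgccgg
CARS1: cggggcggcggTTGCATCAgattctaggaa
GARS1: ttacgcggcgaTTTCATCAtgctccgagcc
These lie at chr2:64989381-64989410 (plus strand), chr13:29595663-29595692 (minus strand), chr11:3057407-3057436 (minus strand) and chr7:30594834-30594863 (plus strand) of GRCh38.p14. The matches of SLC1A4, SLC7A1 and CARS1 fall in or on the edge of the first exon, and that of GARS1 starts 33 bases before the canonical start. PHGDH, PSAT1, SLC7A5, WARS1, XPOT and STC2 are called lower without a match. SLC7A11, PSPH, PYCR1, GPT2 and YARS1 are also called lower but have no window, so they are not in this split. Outside all lists, of 280 other tested genes with a match, 10.4% are called lower and 7.14% higher, against 7.93% and 8.84% of 10795 without one, and the medians are -0.010 and 0.0034. None of these splits is tested.

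**Figure D5:**
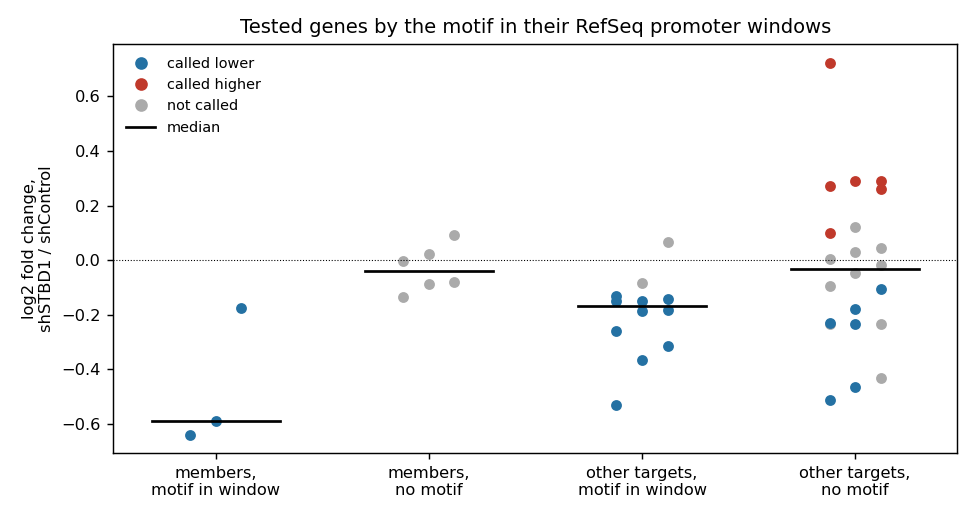
The log2 fold change of the tested members and other targets that have a promoter window, divided by whether a window holds the composite element, 1 point per gene and the median as a line. The 3 members with the element are all called lower and the 6 without it are not called, while among the other targets 10 of 12 with it and 6 of 22 without it are called lower.

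The 6-library profile of the members was compared with that of every other tested gene. The median centred log2 CPM of the 9 tested members is -0.021, 0.14 and 0.083 in shControl and -0.12, -0.030 and -0.040 in shSTBD1. The genes nearest to it are PLP2, NBPF11, SETD4, CENPA and ZNF654, with root mean square distances of 0.015 to 0.024 on the log2 scale over 6 libraries. PLP2, the nearest, is at 92.0, 104 and 101 CPM in shControl and at 88.7, 93.3 and 92.6 CPM in shSTBD1. NBPF11 belongs to a family of near-identical copies, so its counts may be uncertain, which was not examined.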

How the data were processed

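RNA from 3 shControl and 3 shSTBD1 replicates of HCT116 was sequenced by the authors as paired-end libraries. The authors filtered the reads, used STAR 2.7.1a for alignment to Hg38 with the gene models of Ensembl 93, and estimated abundance with RSEM 1.3.1, as the paper and the submitters' processing notes state. The deposited expected counts are not normalized, and between 19.9% and 20.4% of those above 0 are not whole. The TPM values, deposited by the authors from the same run, add up to an equal sum in all libraries. RSEM's effective length and posterior SD were also used. Rounded counts were filtered by filterByExpr, which left 15566 genes, scaled by TMM (factors 0.979 to 1.009) and compared by the quasi-likelihood F-test of edgeR 4.0.16 in R 4.3.3, with the group as the sole term. P-values were adjusted by Benjamini-Hochberg over all tested genes and called under 0.05. The common biological coefficient of variation is 3.37%, and the precision of each gene is given by its SE. No 2 libraries hold identical values.

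The members and all lists were chosen with earlier results of these data known, so members carry no p-value and lists no set test. Named are all members, STBD1, the 4 eIF2 kinases, in each list at most 5 called genes of the largest change in each direction and 3 abundant genes not called, and the 5 genes nearest to the members' median profile. Gene positions come from GENCODE 44 on GRCh38, a later annotation than that of the counts, and promoter windows and their sequences from RefSeq on GRCh38.p14. Alternatives were DESeq2 1.42.0, other scalings, filters and rounding, offsets for length, limma 3.58.1 on log2(TPM + 1) and log2(TPM + 0.1), the replicate number as a block, and leaving out each library. A further gene list is not reported here. The scripts were tested on simulated counts.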

Additional observations from a re-analysis of the deposited data

How the results depend on the processing

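CHAC1, ASNS, PHGDH, PSAT1, SLC7A11 and ERO1A keep direction and call in all 17 alternatives. Over all tested genes the calls fall from 2453 to 1459 with DESeq2, 511 with offsets for effective length, and 292 and 290 with limma on log2(TPM + 1) and log2(TPM + 0.1), and they run from 1409 to 2577 with 1 library left out, with 1570, 1409 and 1496 calls without shSTBD1 replicates 1, 2 and 3. Under offsets for effective length, limma on log2(TPM + 1) and limma on log2(TPM + 0.1), in this order, the called genes number 3, 2 and 2 of the 5 in eIF2 signalling, 2, 2 and 2 of the 7 among bZIP partners and paralogs, 12, 11 and 11 of the 28 among other ATF4 targets and 0, 0 and 0 of the 3 in the IRE1 and ATF6 branches. These fits call fewer genes in general. DESeq2 calls 3 bZIP partners and paralogs, and offsets for a length trend call 5 genes of the IRE1 and ATF6 branches. With 1 library left out, the calls run from 2 to 5 for the members, 4 to 5 for eIF2 signalling, 3 to 6 for bZIP partners and paralogs, 19 to 27 for other ATF4 targets and 1 to 6 for the IRE1 and ATF6 branches. The members lose CEBPG without shSTBD1 replicate 1 or 3 and gain ATF4 and TRIB3 without shControl replicate 1; the cause was not tested. STBD1 misses the threshold with limma on log2(TPM + 1) (-0.54) and log2(TPM + 0.1) (-0.65), and runs from -0.76 to -0.57 with 1 library left out.

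Signs turn for some genes that are not called. With 1 library left out, ATF5 runs from -0.067 to 0.055, DDIT3 from -0.053 to 0.23, SESN2 from -0.14 to 0.0017 and EIF2AK4 from -0.0026 to 0.029. ATF5 is 0.0077 with library size alone and 0.021, 0.0020 and 0.055 without shControl replicate 1, shControl replicate 3 and shSTBD1 replicate 1. DDIT3 is -0.053 without shControl replicate 1 and SESN2 0.0017 without shControl replicate 2. In the fits on effective length, log2(TPM + 1) and log2(TPM + 0.1), EIF2AK3 is 0.19, 0.15 and 0.17 and EIF2AK4 -0.052, -0.059 and -0.061, and EIF2AK4 is -0.0026 without shSTBD1 replicate 2.

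Whether replicate numbers pair the libraries cannot be decided from 3 samples per group. Deviations of same-numbered samples correlate at 0.071, 0.068 and -0.0084. Their mean is 0.043, against -0.022 for samples of other numbers. When replicate number enters as a block, the calls among all tested genes are 2579, and 3 members are called, with log2 fold changes of -0.64 for CHAC1, -0.59 for ASNS and -0.17 for CEBPG. At this depth VLDLR, CBS, NUPR1 and FGF21 cannot be compared.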
